A study of Mus musculus with 6 samples.

Results

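The kinesin motor family was followed through poly(A) RNA-seq libraries of mouse telencephalon, the forebrain region that forms the cortex and basal ganglia. Members were chosen by a rule on names, with earlier results of these data known. The pattern was Kif, a number and at most a letter a, b or c, or Klc and a number from 1 to 4. Kif7, Kif3a, Kif3b and Kif17 were left out. In the deposited table of 24444 gene symbols, 41 fitted the pattern and 37 remained as members. All libraries came from C57BL/6J embryos at stage E12.5, with 3 libraries of the wild-type genotype and 3 of Arl13b-/-, called Arl13b-null here. The labels name no other allele, Cre driver or treatment, and no pooling of embryos. They also leave unsaid whether each library is a separate embryo, so each p-value here rests on the spread between libraries, part of which may be technical.

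Kinesins are ATP-driven motors that move along microtubules or shorten them. In dividing progenitors a set of kinesins builds the spindle, moves chromosomes and completes cytokinesis, and its transcripts accumulate in the G2 and M phases of the cell cycle. In neurons another set carries vesicles, mitochondria and other cargo down the axon, and kinesin-1, the best known of these motors, joins heavy chains (Kif5a, Kif5b, Kif5c) to light chains (Klc1 to Klc4) that bind cargo. The embryonic telencephalon at this age holds dividing progenitors and newborn neurons side by side. Members were therefore sorted into 11 mitotic kinesins, 9 axonal and neuronal transport kinesins, 4 light chains and 13 other kinesins.

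Wild-type 1 and Arl13b-null 2 stood apart from the other 4 libraries, wild-type 2 and 3 and Arl13b-null 1 and 3, in markers of dividing cells, neurons and other cell types, and each result is given with and without them. The 8 markers of dividing cells summed to between 67216 and 77729 normalized counts in the 4 libraries, 16929 in wild-type 1 and 1948 in Arl13b-null 2. The 8 markers of postmitotic neurons summed to between 128896 and 136594 in the 4, 220026 in wild-type 1 and 451937 in Arl13b-null 2. Markers of radial glia, 8 in all, summed to between 98128 and 124324 in the 4, 41414 in wild-type 1 and 3506 in Arl13b-null 2. No marker of these 3 lists was at 0 in any library. Arl13b-null 2 was also below each of the 4 libraries in 8 of 8 mesenchyme markers (summed 596 against 25731 to 70411) and 4 of 4 endothelium markers (211 against 4796 to 6649). Wild-type 1 had 26061 and 5331 for these sums, and its 8 surface ectoderm markers summed to 13040 against 107 to 3093 in the 4 and 53.5 in Arl13b-null 2. Of the ectoderm list, Krt5, Krt8, Krt14 and Krt15 were at 0 in at least 1 library. Depth, estimated from the value of a single read, was between 27577000 and 51685400 reads. Normalized counts over all genes summed to 36179900 in Arl13b-null 2 and to between 27477400 and 29152600 in the other libraries. The part of this larger sum in the higher values of Arl13b-null 2 was not tested. Arl13b itself had 553 to 661 normalized counts in wild-type and 492 to 564 in Arl13b-null libraries (difference −0.14 ± 0.20, SE, limma adjusted p = 0.990), which does not check the genotype labels.

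The mitotic kinesins differed together between libraries of the same genotype. Kif11, which slides spindle microtubules apart and separates the poles, read 1287, 4843 and 5281 normalized counts across wild-type 1 to 3, against 4972, 47.1 and 5426 across Arl13b-null 1 to 3. Kif20a, which brings the Aurora B complex to the central spindle, read 936, 3760 and 3795 normalized counts across wild-type 1 to 3, against 3742, 151 and 3932 across Arl13b-null 1 to 3. For both genes, 4 libraries lay close together, wild-type 1 was lower and Arl13b-null 2 was far lower, so the groups overlapped. In all 11 mitotic members wild-type 1 and Arl13b-null 2 lay below each of the other 4 libraries, as did 46.7% and 49.5% of all genes tested.

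**Figure D1:**
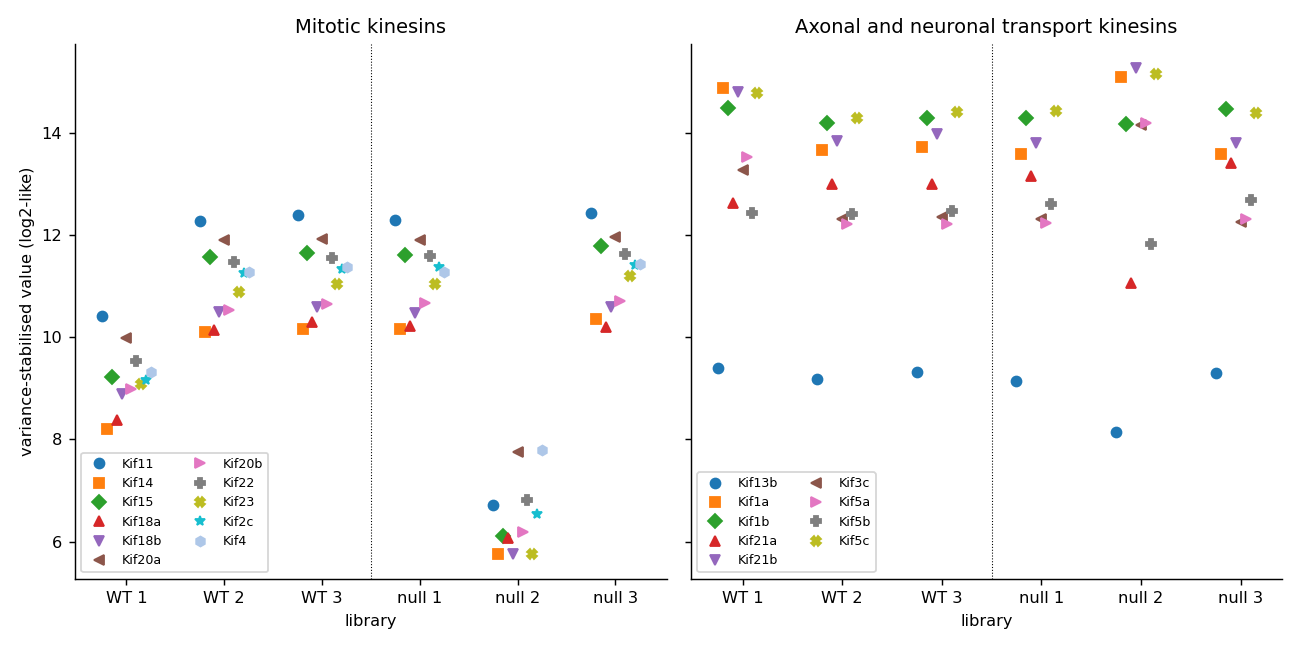
Variance-stabilised values (log2-like, y axis) of each mitotic kinesin (left) and each axonal and neuronal transport kinesin (right) in the 3 wild-type (WT) and 3 Arl13b-null (null) libraries on the x axis, with 1 symbol per gene and a small sideways shift so that symbols do not cover each other. The 11 mitotic kinesins are lowest in null 2 and next lowest in WT 1, whereas Kif5a, Kif3c, Kif1a, Kif21b and Kif5c are highest in those libraries.

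Relative to the mean of the 4 libraries, mitotic kinesins differed by between −2.43 (Kif15) and −1.66 (Kif20b) in wild-type 1, with a median of −1.96, and by between −5.62 (Kif11) and −3.55 (Kif4) in Arl13b-null 2, with a median of −4.74, on the variance-stabilised scale. This scale is close to log2 at high counts and understates changes of genes with few counts. All 11 were lower by at least 1 in each of the 2 libraries, where 6.78% of all 14249 genes tested were lower by that much in wild-type 1 and 25.7% in Arl13b-null 2. In normalized counts, the mean of the 4 libraries was 3.49 to 5.97 times the value in wild-type 1 and 16.2 to 311 times that in Arl13b-null 2. Kif23, the motor of the centralspindlin complex that organises the midzone, had 1829, 2033, 2027 and 2268 normalized counts in the 4 libraries and 473 in wild-type 1. In Arl13b-null 2 it had 6.55, about 5 reads, so its 311-fold lower value has a 95% exact Poisson interval of 133 to 957, which covers counting error only. Kif18b, a motor that limits microtubule length at plus ends, read 404, 1380 and 1475 across wild-type 1 to 3, against 1355, 6.55 and 1472 across Arl13b-null 1 to 3. Kif20b, a motor of the midbody, read 438, 1420 and 1526, against 1549, 19.6 and 1612. Both were lowest in Arl13b-null 2 and next lowest in wild-type 1, as Kif11 was. In this bulk RNA, fewer dividing cells and less of these transcripts per cell cannot be told apart. Relative to the mean of the 4 libraries, markers of mesenchyme had a median difference of −3.80 in Arl13b-null 2 and those of endothelium −3.59, beside −4.74 for the mitotic kinesins. The part of these other cell types in the kinesin values was not tested.

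Kif4 and Kif20a kept more of their signal in Arl13b-null 2 than the other 9 mitotic members. Kif4, a chromosome-bound motor that works at the midzone with Prc1, had 156 normalized counts there and 572 in wild-type 1. In Arl13b-null 2 it was 16.2-fold below the mean of the 4 libraries (95% exact Poisson interval 13.5 to 19.5), and Kif20a was 25.3-fold below (21.0 to 30.6). Kif22, a chromosome-binding motor that pushes chromosome arms outward, came next, 54.8-fold below (40.4 to 76.4). In the GENCODE M21 annotation, 29.3% of the merged exons of Kif20a overlap exons of Cdc23 on the other strand, and 15.1% of those of Kif4 overlap Pdzd11, while no other mitotic member shares over 2% of its exons with another gene. Cdc23 had 1985 normalized counts in Arl13b-null 2 and 4115 to 4493 in the 4 libraries, and Pdzd11 677 and 1326 to 1411. Whether the counting used strand is not given in the sources used here, and the part of these overlaps in the Kif4 and Kif20a values was not tested.

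Promoter windows are shown for 4 mitotic kinesins, a group that differed together between libraries, beside that of Kif5c, a neuronal motor that differed in the other direction. All 4 are among the 6 of 10 mitotic windows that hold both motifs marked here, so they do not stand for the whole group. RefSeq windows on GRCm38.p6 run from 250 bases before to 50 after a gene's start. A window was at hand for 30 of the 37 members (34 windows), 10 of them mitotic. The letters TTTGAA, the core of the cell cycle homology region (CHR), and CCAAT, the letters bound by the factor NF-Y, were searched on both strands, and matches are in capitals (TTCAAA and ATTGG are matches on the other strand). No marked match overlaps another in the windows printed, and the Kif5c window holds neither marked motif.
Kif11, chr19:37376132-37376431, plus strand: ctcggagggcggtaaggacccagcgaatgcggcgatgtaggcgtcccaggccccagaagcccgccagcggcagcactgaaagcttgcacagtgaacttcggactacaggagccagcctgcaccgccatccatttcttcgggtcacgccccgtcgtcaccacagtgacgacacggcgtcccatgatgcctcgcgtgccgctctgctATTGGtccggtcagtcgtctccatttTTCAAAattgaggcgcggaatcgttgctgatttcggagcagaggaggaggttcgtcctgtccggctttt
Kif18b, chr11:102925075-102925374, minus strand: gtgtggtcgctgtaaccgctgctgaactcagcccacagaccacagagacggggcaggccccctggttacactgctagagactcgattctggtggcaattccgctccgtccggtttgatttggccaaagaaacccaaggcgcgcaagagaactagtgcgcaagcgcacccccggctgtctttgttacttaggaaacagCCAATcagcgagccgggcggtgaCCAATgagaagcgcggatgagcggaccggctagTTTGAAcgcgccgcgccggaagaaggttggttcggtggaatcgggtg
Kif22, chr7:127042371-127042670, minus strand: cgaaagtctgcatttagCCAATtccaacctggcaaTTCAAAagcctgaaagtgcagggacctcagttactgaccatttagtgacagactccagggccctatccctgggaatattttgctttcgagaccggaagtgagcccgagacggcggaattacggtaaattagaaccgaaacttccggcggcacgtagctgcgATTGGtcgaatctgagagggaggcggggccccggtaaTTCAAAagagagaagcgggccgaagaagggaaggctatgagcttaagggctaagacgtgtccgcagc
Kif23, chr9:61946750-61947049, minus strand: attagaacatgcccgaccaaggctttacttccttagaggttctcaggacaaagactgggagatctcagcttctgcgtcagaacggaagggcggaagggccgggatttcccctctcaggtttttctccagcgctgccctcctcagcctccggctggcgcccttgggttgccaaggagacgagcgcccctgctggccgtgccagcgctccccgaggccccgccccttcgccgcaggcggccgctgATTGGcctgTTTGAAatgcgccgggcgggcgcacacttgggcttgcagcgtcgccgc
Kif5c, chr2:49619036-49619335, plus strand: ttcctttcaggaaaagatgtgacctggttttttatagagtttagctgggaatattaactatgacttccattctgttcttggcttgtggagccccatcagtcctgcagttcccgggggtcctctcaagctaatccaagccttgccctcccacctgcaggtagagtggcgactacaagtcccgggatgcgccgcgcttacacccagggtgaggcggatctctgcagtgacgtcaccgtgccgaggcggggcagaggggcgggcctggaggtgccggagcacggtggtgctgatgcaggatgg
TTTGAA was in 9 of 10 mitotic windows, with Kif18a the exception, against 17.9% of all 32851 windows. CCAAT was in 6 of 10 against 37.4%, and both were in 6 of 10 (Kif11, Kif14, Kif18b, Kif22, Kif23 and Kif4) against 6.95%. These shares are not particular to mitotic kinesins. Of 23 windows of the spindle and midzone partner genes described below, 16 held TTTGAA, 17 held CCAAT and 14 held both. Of 7 windows of axonal and neuronal transport kinesins, 1, a Kif1a window, held TTTGAA, 2, of Kif1b, held CCAAT and 0 held both motifs. None of 3 light chain windows and 2 of 14 windows of other kinesins held TTTGAA, those of Kif26b and Kif27. The GC box, GGGCGG, was also searched on both strands and is not marked. It was in 6 of 10 mitotic windows, 4 of 7 transport, 3 of 3 light chain and 9 of 14 other. Over all windows its share was 35.7%. In Kif11, the match on the reverse strand begins 19 bases before the start, with CCAAT 45 bases before it. In Kif22 the nearer pair begins 17 and 54 bases before the start. A match to 6 or fewer letters is a description of the window and shows no binding.

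Between genotypes over all 6 libraries, 0 of the 11 mitotic kinesins passed. Their differences, Arl13b-null minus wild-type, lay between −1.20 for Kif11 and −0.49 for Kif4, with a median of −0.84, against 0.0026 for all 14249 genes tested. The standard error was 1.66 for Kif11 and 1.15 for Kif4, and limma's adjusted p was 0.990 for each of the 11. Of all genes tested, 0 (0.0%) passed an adjusted p of 0.05, and 1.14% had an unadjusted p under 0.05, among which there was no kinesin. Leaving out Arl13b-null 2 turned the sign of all 11 mitotic members (median 0.70), and leaving out wild-type 1 took the median to −1.50. With library weights estimated by limma, 10 of the 11 lay above 0 (median 0.093).

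In the 4 remaining libraries the mitotic kinesins lay within a narrow band. Kif2c, a microtubule depolymerase at centromeres, had 2365 and 2525 normalized counts in wild-type 2 and 3 and 2574 and 2658 in Arl13b-null 1 and 3, with 506 in wild-type 1 and 36.7 in Arl13b-null 2. Kif22 had 2761 and 2924 against 3008 and 3098, with 671 and 53.8 in the libraries set aside. These 2 genes were slightly higher in both Arl13b-null libraries, as were Kif14 and Kif20b, and the other 7 overlapped. Over all genes tested, 29.3% were higher in both Arl13b-null libraries without overlap and 18.1% lower. Differences were between −0.014 (Kif18b) and 0.15 (Kif23, 0.15 ± 0.080, SE), with a median of 0.085 against 0.023 over all genes tested. None passed, with limma adjusted p between 0.453 for Kif22 and 0.961 for Kif18a. For Kif11 the difference was 0.038 (95% interval −0.13 to 0.21) and for Kif20a 0.022 (−0.10 to 0.14). All 11 unadjusted 95% intervals lay inside ±0.5, a 1.41-fold change on the log2 scale. Over 6 libraries 0 of the 11 did, and that of Kif11 ran from −5.31 to 2.90. The 4 libraries were chosen with earlier marker results known, so their narrow intervals leave out the spread of the 2 set aside. They do not bound the genotype difference over all libraries. Without Arl13b-null 3 the median was −0.0017, with 5 members above and 6 below 0, and after quantile normalization 6 lay above and 5 below.

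These 4 libraries also differ by sex-linked transcripts in the same way as by genotype. Ddx3y, on the Y chromosome, had 1093 and 1258 normalized counts in wild-type 2 and 3 and 0 and 1.23 in Arl13b-null 1 and 3, and Xist had 26.5 and 213 against 16292 and 19017. Sex and genotype cannot be told apart there. Of the libraries set aside, wild-type 1 had 0.537 normalized counts of Ddx3y and 15101 of Xist, unlike wild-type 2 and 3. Arl13b-null 2 was low in both, at 0 and 244. Kif4, the X-linked mitotic member, had 2394 and 2579 normalized counts in wild-type 2 and 3 and 2420 and 2675 in Arl13b-null 1 and 3, which overlapped (difference 0.033 ± 0.070, SE, limma adjusted p = 0.864). Its annotated pseudogene Kif4-ps was listed at 0 in every library.

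Axonal and neuronal transport kinesins did not differ in a single direction. In the libraries that stood apart, Kif5a, Kif3c, Kif1a, Kif21b and Kif5c were higher than in each of the other 4, and Kif21a was lower. Kif5a, the neuron-restricted kinesin-1 heavy chain, read 11709, 4666 and 4690 normalized counts across wild-type 1 to 3, against 4715, 18642 and 5024 across Arl13b-null 1 to 3. Kif1a, which carries synaptic vesicle precursors, read 30101, 12845 and 13415 normalized counts across wild-type 1 to 3, against 12145, 34621 and 12148 across Arl13b-null 1 to 3. Both genes were highest in Arl13b-null 2, next in wild-type 1, and nearly level in the remaining 4. Kif5c, the other heavy chain enriched in neurons, read 28057, 19927 and 21494 normalized counts across wild-type 1 to 3, against 21835, 36184 and 21414 across Arl13b-null 1 to 3, a smaller excess in the same 2 libraries.

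Against the mean of the 4 libraries, Arl13b-null 2 was higher by 1.95 for Kif5a, 1.84 for the neuronal kinesin-2 motor Kif3c, 1.45 for Kif1a, 1.41 for Kif21b and 0.77 for Kif5c. In the same order, wild-type 1 was higher by 1.28, 0.96, 1.25, 0.95 and 0.41. In Arl13b-null 2, 4 of the 9 were higher by at least 1 and 2 lower, where 20.9% and 25.7% of all genes tested were. In wild-type 1 these numbers were 2 and 0, against 12.4% and 6.78%. Kif3c shares 35.3% of its merged exons with 1110002L01Rik on the other strand, which had 753 normalized counts in wild-type 1, 1521 in Arl13b-null 2 and 474 to 504 in the 4 libraries, and the part of this overlap in the Kif3c value was not tested.

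Kif21a ran opposite to its paralogue Kif21b. Kif21a, a motor that restrains microtubule growth and is mutated in a congenital eye movement disorder, read 6213, 8051 and 8145 normalized counts across wild-type 1 to 3, against 9024, 2064 and 10716 across Arl13b-null 1 to 3. Kif21b, a neuronal motor that also acts on microtubule growth, read 28455, 14529 and 15925 normalized counts across wild-type 1 to 3, against 14149, 39143 and 14200 across Arl13b-null 1 to 3. Arl13b-null 2 thus held the lowest Kif21a value and the highest Kif21b value of the 6. Kif13b, a transport motor that binds the scaffold Dlg1, was also lower in Arl13b-null 2 (219 normalized counts, compared with 511, 566, 498 and 559 in wild-type 2 and 3 and Arl13b-null 1 and 3), but not in wild-type 1 (609), and the difference over 6 libraries was −0.43 ± 0.36 (SE). Kif1b, which carries mitochondria and synaptic vesicle precursors, stayed between 18314 and 22734 in all 6.

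**Figure D2:**
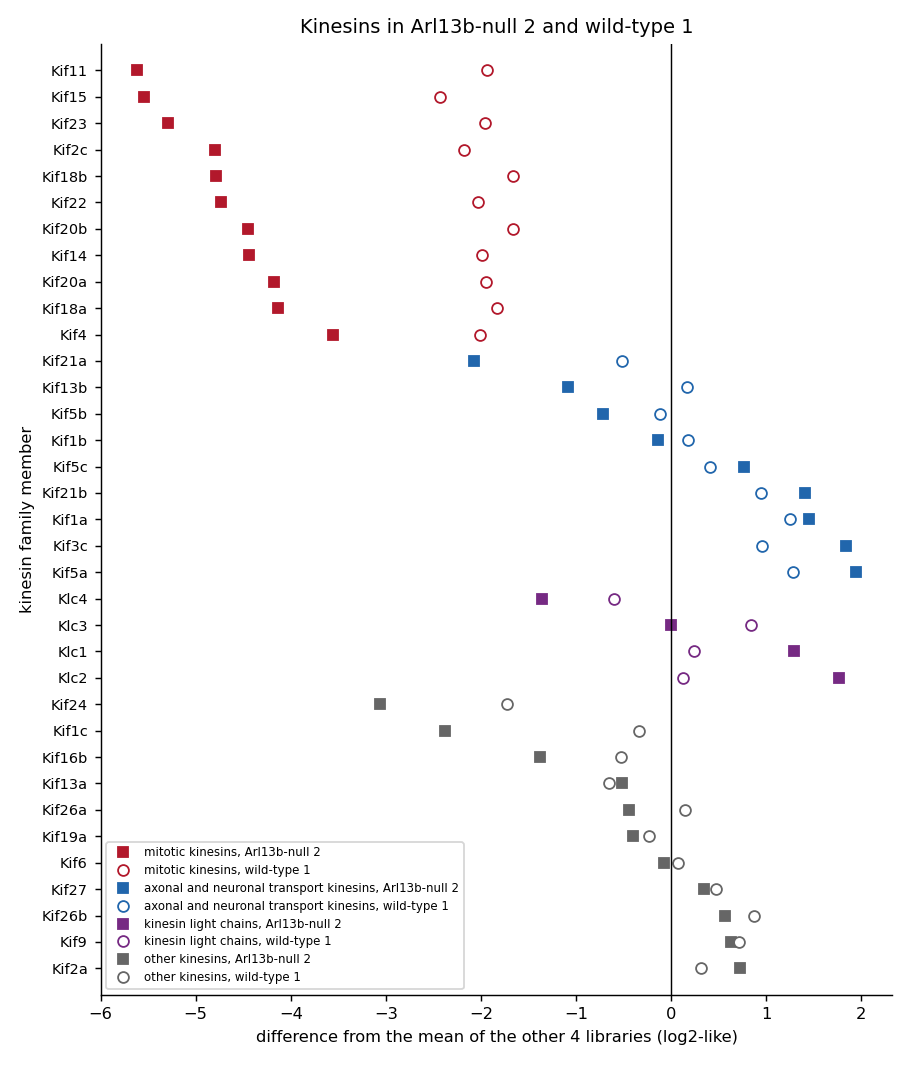
Difference of Arl13b-null 2 (filled squares) and of wild-type 1 (open circles) from the mean of the other 4 libraries, in log2-like units on the x axis, for each of the 35 members tested (y axis), coloured by role. All 11 mitotic kinesins lie left of −1 in both libraries, and the transport kinesins spread from −2.08 (Kif21a) to 1.95 (Kif5a) in Arl13b-null 2.

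Within kinesin-1, the make-up of heavy chain transcripts differed in the same 2 libraries. Per kilobase of merged exons, Kif5c made up 66.1% to 68.7% of the heavy chain counts in the 4 libraries, 62.5% in wild-type 1 and 61.9% in Arl13b-null 2. Kif5a made up 15.0% to 16.2% in the 4, 26.7% in wild-type 1 and 32.6% in Arl13b-null 2. Kif5b, the heavy chain used by most cell types, made up 16.0% to 18.1% in the 4, 10.8% in wild-type 1 and 5.46% in Arl13b-null 2. The ratio of Kif5a to Kif5b counts was 0.766 to 0.866 in the 4, 2.15 in wild-type 1 and 5.23 in Arl13b-null 2. These shares differed together with the neuronal marker sum, in which 7 of 8 neuronal markers lay above all 4 libraries in each of the 2 (43.5% of all genes in Arl13b-null 2 and 40.0% in wild-type 1), and the part of cell composition in them was not tested.

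**Figure D3:**
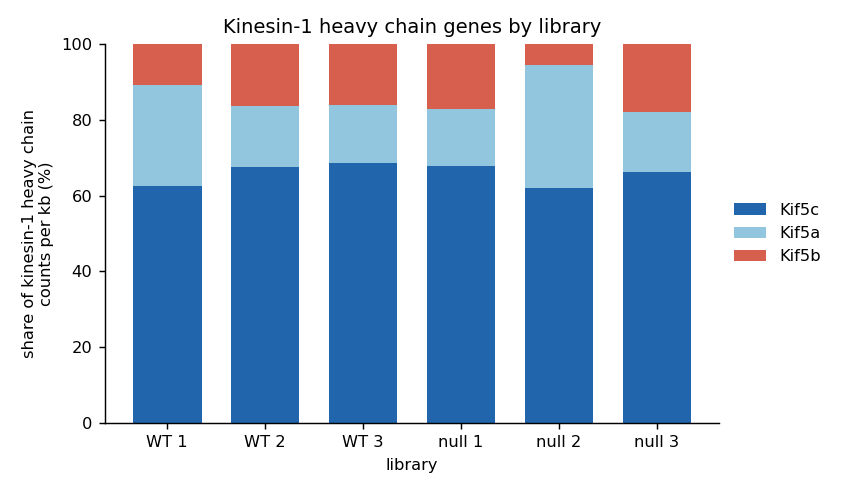
Share (%, y axis) of Kif5c, Kif5a and Kif5b in the summed normalized counts per kilobase of the kinesin-1 heavy chain genes, for the 3 wild-type (WT) and 3 Arl13b-null (null) libraries. WT 1 and null 2 have a larger Kif5a share, 26.7% and 32.6%, and a smaller Kif5b share, 10.8% and 5.46%, than the other 4.

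Between genotypes, 0 of the 9 axonal and neuronal transport kinesins passed in either comparison. Over 6 libraries the differences ran from −0.43 (Kif13b) to 0.27 (Kif3c), with a median of −0.0071, and limma's adjusted p was between 0.990 and 0.999. Kif5a differed by 0.26 ± 0.66 (SE), Kif5c by 0.16 ± 0.29 and Kif1a by −0.0071 ± 0.55, each within the spread of the libraries. Without wild-type 1 the median was 0.31, and Kif1a differed by 0.39. After quantile normalization over 6 libraries the median was −0.19, with 2 members above and 7 below 0, and Kif5c differed by −0.11.

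In the 4 libraries, where 0.253% of all genes tested passed an adjusted p of 0.05 and 14.4% had an unadjusted p under 0.05, Kif5b and Kif21a had the smallest p of this group. Kif5b had 5386 and 5603 normalized counts in wild-type 2 and 3 and 6152 and 6544 in Arl13b-null 1 and 3, with 5440 in wild-type 1 and 3564 in Arl13b-null 2. In the 4 libraries it was higher in both Arl13b-null ones (difference 0.21 ± 0.053, SE, limma unadjusted p = 0.00957, adjusted p = 0.199). Kif21a was likewise above both wild-type values (0.28 ± 0.086, limma unadjusted p = 0.0201, adjusted p = 0.257). Its difference was 0.40 without Arl13b-null 1 and 0.15 without Arl13b-null 3, each with a lone Arl13b-null library left. Kif5a differed by 0.056 (95% interval −0.070 to 0.18), Kif5c by 0.063 (−0.080 to 0.21) and Kif1a by −0.11 (−0.23 to 0.0072). Kif1a and Kif21b were lower in both Arl13b-null libraries, and the groups of 2 did not overlap for 5 of the 9 members, against 47.5% of all genes tested. All 9 unadjusted 95% intervals lay inside ±0.5, whereas over 6 libraries 1 of the 9 did. Here too the choice of the 4 libraries leaves out the spread of the 2 set aside. These intervals therefore do not bound the genotype difference over all libraries.

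**Figure D4:**
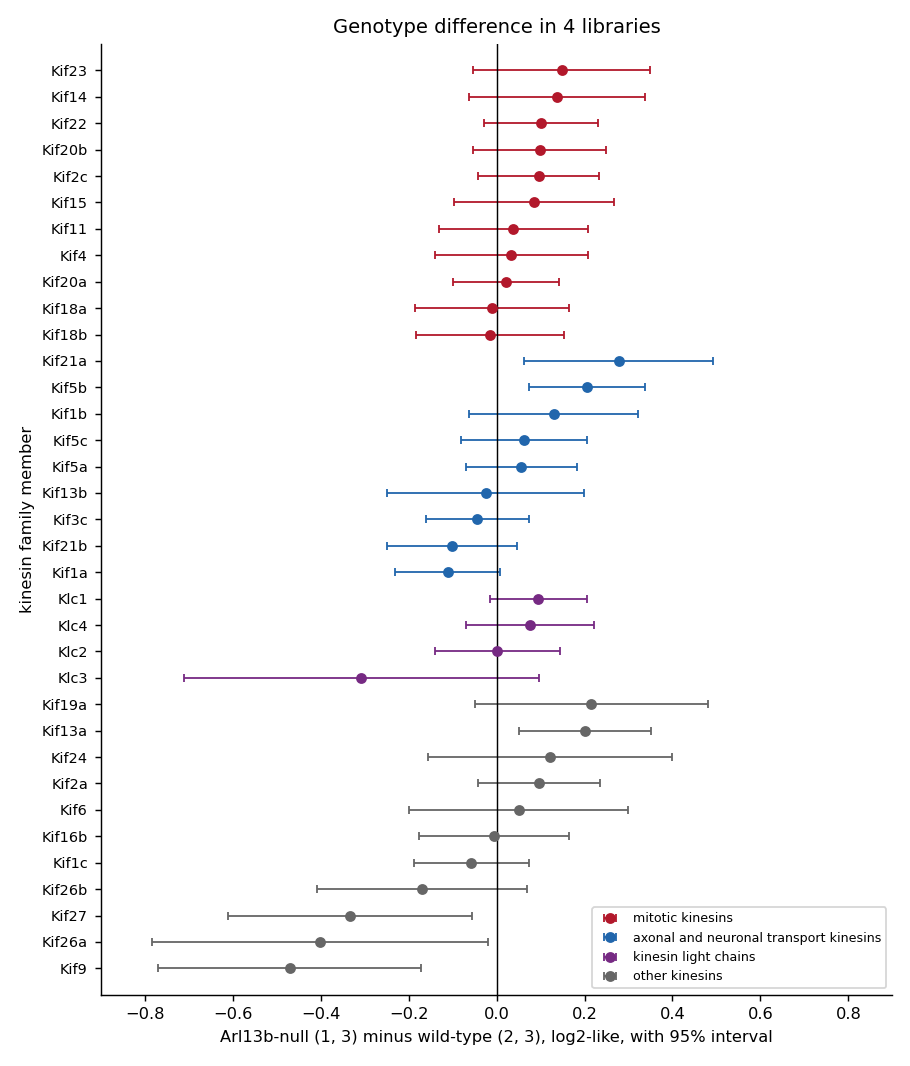
Difference between Arl13b-null 1 and 3 and wild-type 2 and 3 (log2-like units, x axis) for each of the 35 members tested (y axis), with unadjusted 95% intervals from limma as bars and colours for the roles. The 11 mitotic and 9 transport kinesins lie between −0.11 and 0.28, and Kif9, Kif26a, Kif27 and Klc3 have the lowest values, none of which passed over all genes.

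The light chains split as the heavy chains did. Klc1, the main neuronal light chain, read 17579, 14342 and 14316 normalized counts across wild-type 1 to 3, against 15349, 36514 and 15262 across Arl13b-null 1 to 3. Klc2 read 2686, 2472 and 2439 normalized counts across wild-type 1 to 3, against 2557, 8497 and 2363 across Arl13b-null 1 to 3. Both were far higher in Arl13b-null 2 than anywhere else and only slightly higher in wild-type 1. Klc4 went the other way, at 846, 1285 and 1276 across wild-type 1 to 3 against 1399, 475 and 1310 across Arl13b-null 1 to 3. Klc3, a light chain best known from sperm, was low in all libraries, at 171, 104 and 68.5 across wild-type 1 to 3 against 67.5, 70.9 and 51.2 across Arl13b-null 1 to 3. It shares 28.1% of its merged exons with Ercc2 on the other strand, which had 941 to 1547 normalized counts.

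None of the 4 light chains passed. Over 6 libraries the differences were 0.41 ± 0.39 (SE) for Klc1, 0.55 ± 0.51 for Klc2, −0.20 ± 0.45 for Klc4 and −0.49 ± 0.28 for Klc3, with a limma adjusted p of 0.990 each. Without Arl13b-null 2, Klc1 and Klc2 differed by −0.0033 and −0.041. In the 4 libraries Klc1 differed by 0.095 ± 0.044 (limma adjusted p = 0.410), Klc2 by 0.0015 ± 0.057 (adjusted p = 0.992), Klc4 by 0.076 ± 0.058 (adjusted p = 0.608) and Klc3 by −0.31 ± 0.16 (adjusted p = 0.458). The groups of 2 did not overlap for Klc1, Klc3 and Klc4, against 47.5% of all genes tested.

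Of the 13 other kinesins, Kif12 and Kif2b were listed at 0 in all 6 libraries, where 3 reads would be worth between 1.61 and 3.94 normalized counts, and the other 11 were tested. Kif24, a centriolar depolymerase that holds back cilium assembly, followed the mitotic block, at 149, 636 and 578 normalized counts across wild-type 1 to 3 against 600, 28.8 and 738 across Arl13b-null 1 to 3. Kif1c, which carries secretory and other vesicles, read 2299, 3055 and 2914 normalized counts across wild-type 1 to 3, against 2799, 506 and 2933 across Arl13b-null 1 to 3, lowest in Arl13b-null 2 (genotype difference −0.72 ± 0.68, SE, over 6 libraries and −0.057 ± 0.053 over 4). Kif16b, a motor of early endosomes, was lower in both libraries as well (372 and 178 against 551 to 575 in the 4 libraries). Its antisense gene Kif16bos had at most 1.41 normalized counts. Kif2a, a depolymerase that prunes axon branches, was higher in wild-type 1 (4408) and Arl13b-null 2 (5876) than in the 4 libraries (3271 to 3682). In exons, 19.2% of Kif2a overlaps Dimt1 on the other strand, which had 289 to 406 normalized counts.

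Kif26a was the only 1 of the 35 tested members whose 3 wild-type libraries all lay above the 3 Arl13b-null libraries. Kif26a encodes a kinesin-like protein without motor activity that restrains GDNF-Ret signalling in enteric neurons. It read 3830, 3599 and 4419 normalized counts across wild-type 1 to 3, against 3443, 2537 and 2616 across Arl13b-null 1 to 3. The lowest wild-type value was close to the highest Arl13b-null value. The difference was −0.46 ± 0.19 (SE; limma unadjusted p = 0.0570, adjusted p = 0.990; exact two-sided permutation p = 0.1, the smallest that 3 against 3 can give), and it did not pass. Among all genes tested 8.26% had groups of 3 that did not overlap, 3.59% with the Arl13b-null group lower, so 1 of 35 members is no more than the background share. In the 4 libraries it differed by −0.40 ± 0.15 (unadjusted p = 0.0424, adjusted p = 0.328). Without Arl13b-null 1 the value was −0.60 and without Arl13b-null 3 it was −0.21, each with a lone Arl13b-null library left. Its paralogue Kif26b differed by −0.21 ± 0.33 over 6 and −0.17 ± 0.095 over 4 libraries.

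Kinesins linked to motile cilia were low in every library. Kif9, a motor of the axoneme, read 109, 66.6 and 59.7 normalized counts across wild-type 1 to 3, against 38.3, 100 and 27.5 across Arl13b-null 1 to 3. Kif27, a relative of the left-out Kif7 that motile cilia need, read 132, 89.3 and 103 normalized counts across wild-type 1 to 3, against 71.5, 117 and 59.8 across Arl13b-null 1 to 3. Among the 4 libraries both were lower in Arl13b-null 1 and 3, while Arl13b-null 2 lay above wild-type 2 and 3 for each. Kif9 differed by −0.47 ± 0.12 (SE) in the 4 libraries, the lowest value of the 35 members (limma unadjusted p = 0.00914, adjusted p = 0.197), and Kif27 by −0.33 ± 0.11 (unadjusted p = 0.0269, adjusted p = 0.281). On the log2 scale of inverted counts with a pseudocount of 1, where low genes are compressed less, Kif9 differed by −0.94 and Kif27 by −0.55, and neither passed. Without Arl13b-null 3 they differed by −0.37 and −0.26, and without Arl13b-null 1 by more in the same direction, each with a lone Arl13b-null library left. Over 6 libraries Kif9 differed by −0.34 ± 0.33 and Kif27 by −0.26 ± 0.25 (adjusted p = 0.990 each). Kif6 and Kif19a, the other members known from motile cilia, had 39.3 to 48.2 and 23.6 to 54.8 normalized counts and differed by 0.050 ± 0.100 and 0.22 ± 0.11 in the 4 libraries.

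Kif13a, which moves mannose-6-phosphate receptors from the Golgi, was the fourth other kinesin with an unadjusted p under 0.05 in the 4 libraries. It read 1687, 2495 and 2512 normalized counts across wild-type 1 to 3, against 2758, 1861 and 3024 across Arl13b-null 1 to 3. Its difference was 0.20 ± 0.060 in the 4 libraries (SE; limma unadjusted p = 0.0173, adjusted p = 0.243), and 0.18 ± 0.27 over 6. Across all 35 members, 0 passed in the 4 libraries, 6 (3 higher and 3 lower) had an unadjusted p under 0.05, a share near the 14.4% of all genes, and the groups of 2 did not overlap for 20, against 47.5% of all genes. The median difference was 0.050 in the 4 libraries and −0.33 over 6.

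Genes whose proteins work with kinesins differed in the same libraries. Of 25 spindle and midzone partners, all were below each of the 4 libraries in wild-type 1 and in Arl13b-null 2, with median differences of −2.00 and −4.84, close to those of the mitotic kinesins. Kifc1 and Cenpe of the spindle list are kinesins themselves, and are not members because their symbols fall outside the pattern. Of 30 cargo adaptors and regulators of transport motors, 27 were above all 4 libraries in Arl13b-null 2 and 24 in wild-type 1, with medians of 1.14 and 0.47. Map2 and Stmn2 of this list are also among the markers of postmitotic neurons in which these libraries stood apart. Of all genes tested, 43.5% and 40.0% lay above all 4 in these libraries, and 49.5% and 46.7% below. Neither list had a member past the threshold between genotypes, over 6 or over 4 libraries. In the 4 libraries 19 of 25 spindle partners were higher in both Arl13b-null libraries without overlap and 0 lower. Of the 30 adaptors 13 were higher and 3 lower, where 29.3% of all genes were higher and 18.1% lower. The limma unadjusted p was under 0.05 for 5 spindle partners and 6 adaptors, against 14.4% of all genes. The median genotype difference was −0.82 over 6 and 0.12 over 4 libraries for the spindle list, and 0.24 and 0.063 for the adaptors. Racgap1, the partner of Kif23 in centralspindlin, had the smallest p of the spindle list in the 4 libraries (0.17 ± 0.045, SE, limma adjusted p = 0.209), followed by Ccnb2 (0.22 ± 0.059, adjusted p = 0.211) and Ect2 (0.19 ± 0.057, adjusted p = 0.243). Among adaptors these were Fez2 (0.30 ± 0.064, adjusted p = 0.153), Ppfia3 (0.17 ± 0.052, adjusted p = 0.251) and Map7d1 (0.13 ± 0.046, adjusted p = 0.286), with Fez2 and Map7d1 above all wild-type libraries in all 3 Arl13b-null ones, 2 of 30 against 4.67% of all genes tested. Of the 8 surface ectoderm markers 8 were lower in Arl13b-null 1 and 3 than in wild-type 2 and 3 without overlap. In the same way 6 of 8 mesenchyme markers were lower and 3 of 4 endothelium markers higher, against 18.1% of all genes lower and 29.3% higher. Their part in the kinesin and partner differences was not tested.

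Compared per kilobase of merged GENCODE M21 exons, kinesin-1 led the family in the 4 libraries. Klc1 had the highest level, 3518 to 3771 normalized counts per kilobase, followed by Kif5c with 2790 to 3057. Next came Kif21a (1243 to 1655), Kif1a (1302 to 1438), Kif21b (1161 to 1307) and Kif1b (1052 to 1271), neighbours whose ranges overlapped. Kif20a was the highest mitotic member, at 863 to 906 per kilobase, followed by Kif11 (649 to 727) and Kif22 (563 to 632), and Kif14 the lowest, at 98.8 to 120. In Arl13b-null 2 the highest mitotic level was 34.7 per kilobase (Kif20a), whereas Klc1 reached 8971 and Kif5c 5066. The exons a library in fact uses may be shorter than the merged annotation, so the order is approximate. Of the merged exons of Kif20a, 29.3% overlap Cdc23 on the other strand, and the part of this overlap in its rank was not tested.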

How the data were processed

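Poly(A) RNA of 6 libraries was sequenced and grouped here by labelled genotype. The deposited values are counts that the authors normalized and variance-stabilised, on a log2-like scale. The submitters' processing notes list STAR 2.6.0, Salmon 0.9.1, CASAVA, DESeq2, DESeq 1.16.1 and mm9 without saying what each did. No label or header gives the annotation or the strand setting. The lowest value, shared by all libraries, was taken as a count of 0, which fixes the transformation, and its inverse gave normalized counts. Only 69.3% to 81.1% of values under 30 reads came within 0.05 of whole reads, so no count test was run.

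Genes with a mean at least 1 above the lowest value were kept, 14249 in all and 35 of the 37 members. Genotypes were compared across all of them with limma 3.58.1 in R 4.3.3 (variance trend on, two-sided, Benjamini-Hochberg adjusted p under 0.05 called), over all 6 libraries and over wild-type 2 and 3 against Arl13b-null 1 and 3. The fits were also run on simulated data with independent noise for each gene. That noise holds no shift shared by many genes of a library, so the simulation does not cover wild-type 1 and Arl13b-null 2. Alternatives were other filters, scalings, pseudocounts, moderation, library weights, a replicate block and leaving out each library. Lists are described by counts and medians, without a test. Members, lists and the choice of the 4 libraries were made with earlier results of these data known. Full values are given for Kif11, Kif20a, Kif5a, Kif5c, Kif1a and Kif4 and, in each role and each comparison, the 3 members with the smallest p, and statistics for the 3 such genes of each partner list in the 4 libraries. Kif24 and the genes overlapping members were singled out after their values were seen. Promoter coordinates are of GRCm38.p6, another build than that of the files. Windows of Kif5a, Kif5b, Kif13b, Kif19a, Kif20a, Kif21b and Klc2 were not analysed here. Results for some marker genes, and for the lists that hold them, are not reported here.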

Additional observations from a re-analysis of the deposited data

How the results depend on the processing

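Of 280 alternative values of list medians and counts of calls, 252 moved by less than the spread between libraries or by under 1.5 times, and 28 by more; of 638 for single genes, 583 kept their direction and side of the threshold, 2 newly passed and 53 changed sign, among them 16 of 23 without Arl13b-null 2 and 13 of 23 with library weights over 6 libraries. In 46 of the 53 the reported difference was within its own standard error, and the other 7 are given below. In no alternative over 6 libraries did a kinesin pass. That spread was so wide over 6 libraries that it held the change of sign of the mitotic median, which ran from −1.63 to 0.70 when 1 library was left out. The cause of the shifts below was not tested. Over 6 libraries, genes passing limma's threshold numbered 3 without a filter, 214 with library weights and 0 to 4 when 1 library was left out. The median of the light chains was 0.41 with the stricter filter, which keeps 3 of them. That of other kinesins was −0.030 after quantile normalization, 0.016 with weights and −0.21 to 0.019 without 1 library, and that of transport kinesins −0.084 to 0.31 without 1 library. Kif27 differed by 0.042 after quantile normalization, and with weights Kif13b by 0.067 and Klc2 by −0.034. Without 1 library Kif1c ranged from −1.13 to 0.065, Klc1 from −0.0033 to 0.62 and Klc2 from −0.041 to 0.87. Over 4 libraries, genes passing numbered 1 without a filter, 59 after quantile normalization, 7 without the trend, 98 with robust moderation and 6 to 725 without 1 library (725 without Arl13b-null 1), kinesins among them 0 to 2, where the lone library of a group is assumed to vary like the other group. Without 1 library the medians ranged from −0.0017 to 0.12 (mitotic), −0.032 to 0.022 (other) and 0.052 to 0.077 (adaptors). After quantile normalization the transport median and Kif5c were each −0.015 and the adaptors' median 0.020, and after centring the other kinesins' median was −0.020 and the adaptors' 0.048. Same-numbered libraries had correlations of deviations from their group means of −0.814, −0.812 and 0.770. Wild-type 1 and Arl13b-null 2 dominate these deviations and carry different numbers. The signs therefore cannot show whether the numbers pair the libraries. With the replicate block over 6 libraries 0 genes passed and the mitotic median was −0.84. The 4 libraries share only 1 number.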
